A study of Mus musculus with 4 samples.

Results

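Heat shock proteins and their DnaJ partners were examined in RNA sequenced from mouse aortic grafts collected 4 weeks after aorta transplantation. The ALLO grafts belong to a model that the series title describes as abdominal aorta allograft with chronic rejection, and the ISO grafts form the comparison group; 2 libraries were made in each group. The labels give neither the strains, sex or age of the mice nor any treatment, and they do not say whether a library is 1 animal or a pool. P-values below therefore measure the spread between these libraries. That spread may be technical in ALLO, whereas the ISO libraries differed in Xist and Ddx3y as female and male mice do. The members were 74 of the 54752 gene IDs of the count table, 21921 of them protein-coding: every protein-coding gene whose symbol is Hspa or Hspb with a number or begins with Hsp90, Dnaja, Dnajb or Dnajc, together with Hsph1, Hspd1, Hspe1, Hsf1, Hsf2 and Bag3. A further small heat shock protein gene is not reported here. Members were chosen by symbol alone, but the family as a subject was selected on earlier ALLO over ISO count differences in these same libraries, so counts over its members are descriptions and support nothing by themselves.

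Heat shock proteins are molecular chaperones that bind unfolded or partly folded proteins. HSP70 proteins bind and release their clients in an ATP-driven cycle that DnaJ (HSP40) proteins start through their J domain and that HSP110 and BAG proteins reset by nucleotide exchange; HSP90 takes over late folding steps, and small heat shock proteins hold unfolding proteins without ATP. The factor HSF1 drives the inducible genes of the family by binding heat shock elements in their promoters, while the unfolded protein response drives the chaperones of the endoplasmic reticulum through a separate element. In the vessel wall, HSPB1, HSPB6 and HSPB8 are known as smooth muscle proteins tied to the contractile cytoskeleton, and BAG3 with HSPB8 clears damaged filamin.

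The promoter sequences below show where these elements lie in the genes that the results turn on. RefSeq promoter windows on build GRCm38.p6, 250 bases before to 50 bases after the transcription start, were at hand for 59 of the 74 members. Those of the members named in this paragraph are printed 5′ to 3′ on the gene's own strand. Hsph1 and Dnajb6 each have another, overlapping window that is not printed. Capitals mark a heat shock element of 3 alternating GAA and TTC units or a shorter form of 2 units, or in Hspa5 an endoplasmic reticulum stress element. The shorter form was added after values had been seen and occurs in 17.0% of all genes with a window. In Hspa1a, Hspa1b and Hspb1 only the shorter form was found. Position −1 is the base just before the start. Hspa1a (chr17:34972107-34972406, minus strand) and Hspa1b (chr17:34959189-34959488, minus strand), the stress-inducible HSP70 pair, are shown because they had the largest decreases in ALLO grafts, and Hspb1 (chr5:135887669-135887968, plus strand) and Hsph1 (chr5:149636266-149636565, minus strand) because they also fell at least 8-fold. Hspe1 (chr1:55087898-55088197, plus strand) fell less, Dnajb6 (chr5:29735648-29735947, plus strand) holds a full heat shock element and did not pass the test, and Hspa5 (chr2:34771840-34772139, plus strand) carries the endoplasmic reticulum element and did not pass either. The windows lie around the transcription starts and so hold the first bases of an exon at their 3′ end.
Hspa1a: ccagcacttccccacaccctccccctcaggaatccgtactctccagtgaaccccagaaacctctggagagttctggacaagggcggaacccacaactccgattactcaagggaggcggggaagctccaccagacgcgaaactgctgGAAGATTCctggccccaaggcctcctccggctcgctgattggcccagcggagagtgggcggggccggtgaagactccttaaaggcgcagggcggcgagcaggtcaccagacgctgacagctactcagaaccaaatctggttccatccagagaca
Hspa1b: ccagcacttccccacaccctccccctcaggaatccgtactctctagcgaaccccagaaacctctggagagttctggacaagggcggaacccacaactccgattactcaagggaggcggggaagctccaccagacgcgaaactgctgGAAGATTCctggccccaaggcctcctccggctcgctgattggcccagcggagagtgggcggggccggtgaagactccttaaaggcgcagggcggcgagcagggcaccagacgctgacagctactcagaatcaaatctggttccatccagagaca
Hspb1: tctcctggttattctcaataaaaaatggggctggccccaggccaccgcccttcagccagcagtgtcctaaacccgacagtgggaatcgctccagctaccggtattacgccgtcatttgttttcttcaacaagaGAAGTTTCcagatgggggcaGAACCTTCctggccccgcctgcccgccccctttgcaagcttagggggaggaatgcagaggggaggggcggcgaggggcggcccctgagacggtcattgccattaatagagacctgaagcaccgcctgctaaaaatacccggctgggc
Hsph1: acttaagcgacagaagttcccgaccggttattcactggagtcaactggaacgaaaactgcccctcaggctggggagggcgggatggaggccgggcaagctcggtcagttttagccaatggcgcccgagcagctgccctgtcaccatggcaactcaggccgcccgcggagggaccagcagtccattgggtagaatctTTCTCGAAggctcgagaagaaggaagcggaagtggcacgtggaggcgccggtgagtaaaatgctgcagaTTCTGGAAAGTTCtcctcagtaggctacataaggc
Hspe1: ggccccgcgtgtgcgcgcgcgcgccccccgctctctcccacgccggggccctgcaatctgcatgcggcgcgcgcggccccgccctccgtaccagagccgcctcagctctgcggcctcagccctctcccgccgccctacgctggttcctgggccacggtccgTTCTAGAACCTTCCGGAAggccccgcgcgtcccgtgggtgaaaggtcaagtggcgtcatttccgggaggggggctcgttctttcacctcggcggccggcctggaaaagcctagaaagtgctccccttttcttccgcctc
Dnajb6: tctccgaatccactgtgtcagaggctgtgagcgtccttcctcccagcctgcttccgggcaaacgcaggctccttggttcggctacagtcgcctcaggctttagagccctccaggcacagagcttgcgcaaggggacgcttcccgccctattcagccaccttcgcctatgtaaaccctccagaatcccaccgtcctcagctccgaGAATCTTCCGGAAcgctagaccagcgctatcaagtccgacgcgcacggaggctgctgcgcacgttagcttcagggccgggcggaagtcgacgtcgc
Hspa5: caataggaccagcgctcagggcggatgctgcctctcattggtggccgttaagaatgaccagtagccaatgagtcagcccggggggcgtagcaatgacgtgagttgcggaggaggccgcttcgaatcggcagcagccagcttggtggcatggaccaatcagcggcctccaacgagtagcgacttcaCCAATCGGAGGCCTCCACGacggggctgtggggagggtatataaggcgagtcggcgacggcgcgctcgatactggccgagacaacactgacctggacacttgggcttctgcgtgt

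The Hspa1a and Hspa1b windows were identical at 296 of 300 bases (98.7%), and both hold GAAGATTC at position -104. The Hspe1 window shares 285 bases with 1 of the 2 Hspd1 windows, which is read from the opposite strand, so the element printed for Hspe1 also lies in that Hspd1 window. The second Hspd1 window, around another start, shares 4 bases with that of Hspe1 and holds no heat shock element of either form.

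The 4 libraries held 17532344 to 20194854 counts assigned to genes, with 21593 and 22171 genes detected in ALLO libraries and 20686 and 19987 in ISO libraries. Libraries differed in ways the labels do not give: Xist had 6 and 0 counts in ALLO replicates 1 and 2, against 10647 and 8 in ISO replicates 1 and 2, and the Y-linked Ddx3y had 2287 and 2105 in ALLO libraries, against 0 and 2312 in ISO libraries. Immunoglobulin genes took 11.2% and 3.08% of counts in ALLO replicates 1 and 2, against 0.0699% and 0.00136% in ISO replicates 1 and 2. The labelled tissue was recognisable by its smooth muscle markers, all 10 of which fell in ALLO grafts with a median log2 change of -4.18: their summed level was 1473 and 2768 CPM (counts scaled to the library total) in ALLO libraries, against 34375 and 35325 CPM in ISO libraries. All 8 T cell markers, all 8 macrophage markers and all 8 markers of dividing cells rose, and 6 of 8 plasma cell markers rose, a count that dropped to 1 without ALLO replicate 1. Marker counts here and below stand beside the 14.8% of all genes tested that fell and the 18.4% that rose. In bulk tissue, fewer cells of a type and less RNA per cell cannot be told apart, and the part of any of these cell types in the results below was not tested except where a value is given.

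More chaperone genes fell than rose in ALLO grafts. Of the 67 members with enough counts to test, 27 fell (40.3%), 7 rose (10.4%) and 33 did not pass an adjusted p of 0.05, which with 2 libraries a group does not show that they were alike. Of the 16498 genes tested, 14.8% fell, 18.4% rose and 33.1% changed in either direction. The median log2 change of the members was -0.43, against 0.03 over all genes tested. Among the 27 that fell, 20 were at least 2-fold, 13 at least 4-fold and 8 at least 8-fold lower. Of the 7 that rose, 4 were at least 2-fold higher, and Dnajc6 passed the count filter only through its ALLO counts. ALLO and ISO values did not overlap for 56 of the 67 members (83.6%), beside 72.5% of all genes tested. Leaving out a library reduced the count of genes that fell to 17 without ALLO replicate 1 and to 18 without either ISO library, and the count of genes that rose to 2 without ALLO replicate 1, ISO replicate 1 or ISO replicate 2. Of the 34 calls, 17 were kept with each library left out, 15 lower and 2 higher. Together the members took 0.689% and 0.634% of all counts in ALLO libraries, against 1.24% and 1.21% in ISO libraries.

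**Figure D1:**
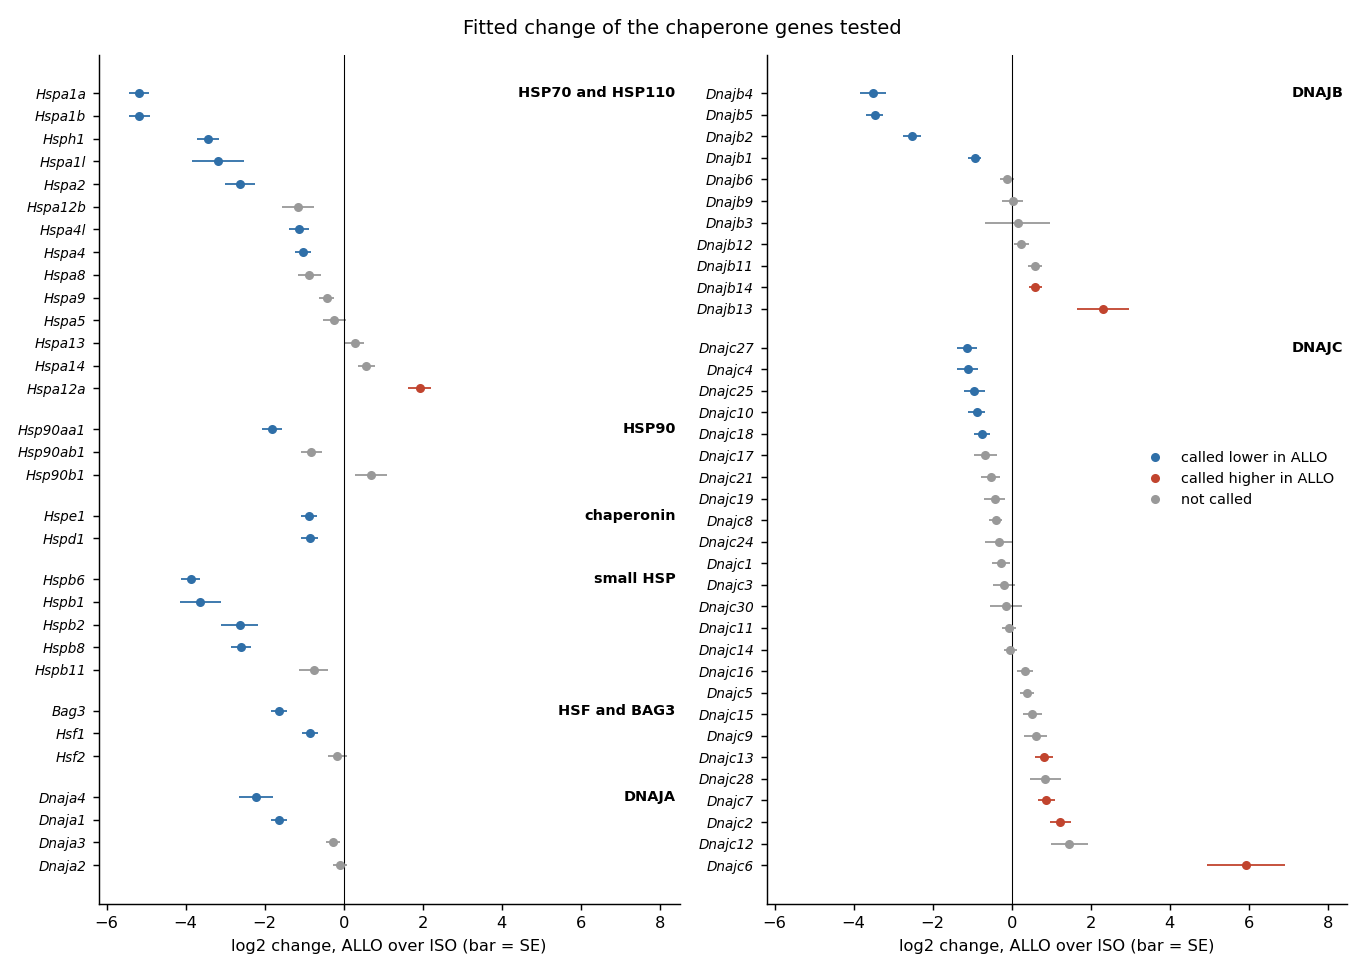
Fitted log2 change, ALLO over ISO, of the 67 chaperone genes tested, ordered within subfamily; points are estimates, bars their standard errors and colours the call at an adjusted p of 0.05 in the fit over all genes. Hspa1a and Hspa1b lie lowest, at -5.18 and -5.17, and the DNAJC genes lie on both sides of 0, with 5 lower and 4 higher.

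The stress-inducible HSP70 genes showed the largest decreases. Hspa1a and Hspa1b, which encode nearly the same cytosolic HSP70 protein and are neighbours on the minus strand of chromosome 17 (mm10, 34969190 to 34972156 and 34956436 to 34959238), were 36.2-fold and 36.0-fold lower in ALLO grafts. Hspa1a had 263 and 335 counts in ALLO libraries, against 8252 and 9248 in ISO libraries, or 13.5 and 15.2 CPM in ALLO libraries, against 482 and 558 CPM in ISO libraries (log2 change -5.18 ± 0.25 SE, adjusted p = 0.00214). Hspa1b had 28.0 and 27.0 CPM in ALLO libraries and 977 and 1003 CPM in ISO libraries (log2 change -5.17 ± 0.26 SE, adjusted p = 0.00214). Every ALLO value of both genes was far below every ISO value, and the replicates of each group lay close together. Reads from such close copies can be assigned to either gene, so the split between them is uncertain. The ratio of Hspa1b to Hspa1a per length was 2.19 and 1.88 in ALLO libraries and 2.14 and 1.90 in ISO libraries, with no separation of the groups. Hspa1l, the neighbouring germ-cell HSP70 gene, had 6 and 12 counts in ALLO libraries and 46 and 87 in ISO libraries; it passed the test (log2 change -3.19 ± 0.66 SE, adjusted p = 0.0213), but 71.9% of its exonic bases also belong to Gm10501, and the call was lost without ALLO replicate 1, ALLO replicate 2 or ISO replicate 2.

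The main constitutive HSP70 of the cytosol did not pass the test. Hspa8 (HSC70), which handles everyday folding and clathrin uncoating, had 1291 and 1142 CPM in ALLO libraries and 2305 and 2165 CPM in ISO libraries, and the groups did not overlap (log2 change -0.88 ± 0.29 SE, adjusted p = 0.0734). Its adjusted p ranged from 0.000102 to 0.167 over the 13 alternative analyses, and it was under 0.05 with DESeq2, with limma-voom and with no filter on low counts. Per length, the ratio of Hspa1b to Hspa8 was 0.0333 and 0.0362 in ALLO libraries, against 0.651 and 0.711 in ISO libraries; this ratio was not tested. The inducible transcript was thus far below the constitutive one in ALLO grafts and of similar order in ISO grafts.

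**Figure D2:**
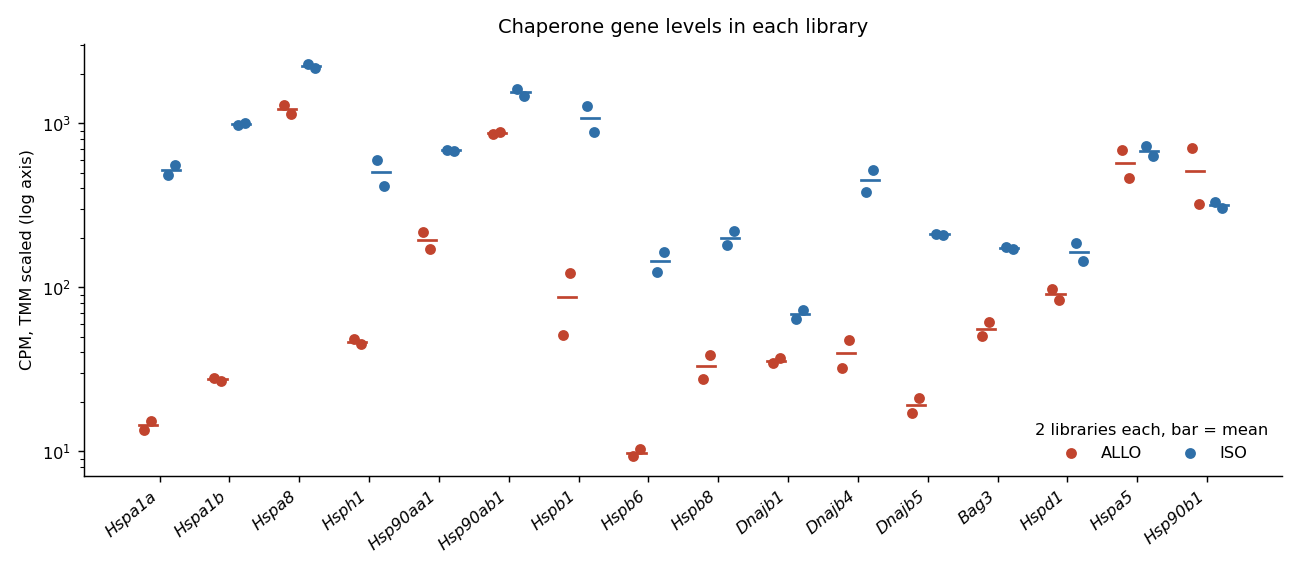
Level of 16 chaperone genes in each library in CPM on a log axis; points are libraries, 2 per group, and short bars the group means. ALLO values of Hspa1a (13.5 and 15.2 CPM) and Hspb6 (9.30 and 10.3 CPM) lie far below their ISO values, while the Hspa5 values of the groups overlap.

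The HSP110 genes, whose products exchange nucleotide on HSP70, also fell. Hsph1 (HSP105), the heat-inducible member, had 48.0 and 45.0 CPM in ALLO libraries, against 594 and 412 CPM in ISO libraries, a 10.8-fold decrease (log2 change -3.44 ± 0.28 SE, adjusted p = 0.00339). Hspa4 (APG-2) had 147 and 143 CPM in ALLO libraries and 272 and 319 CPM in ISO libraries (log2 change -1.03 ± 0.20 SE, adjusted p = 0.0193). Hspa4l (APG-1) had 36.7 and 27.2 CPM in ALLO libraries and 80.7 and 59.1 CPM in ISO libraries (log2 change -1.13 ± 0.26 SE, adjusted p = 0.0268). The groups did not overlap for any of the 3, but the Hspa4 call was lost without either ISO library and the Hspa4l call without ISO replicate 1 or ALLO replicate 2. Hspa2, an HSP70 best known from the testis, fell 6.20-fold, with 8.99 and 16.7 CPM in ALLO libraries and 66.2 and 93.7 CPM in ISO libraries (log2 change -2.63 ± 0.38 SE, adjusted p = 0.00844).

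The remaining HSP70 relatives of the cytosol gave 1 increase. Hspa12a, a distant member with an atypical ATPase domain, was the HSP70 gene that rose: 23.4 and 28.6 CPM in ALLO libraries, against 7.95 and 5.73 CPM in ISO libraries (log2 change 1.92 ± 0.29 SE, adjusted p = 0.00998), and the call was kept with each library left out. Hspa12b, known from endothelial cells, had 15.2 and 27.0 CPM in ALLO libraries and 60.0 and 34.8 CPM in ISO libraries and did not pass (log2 change -1.17 ± 0.40 SE, adjusted p = 0.0807). Beside it, 4 of 8 endothelial markers fell and 1 rose, the increase being lost with any library left out, with a summed level of 730 and 826 CPM in ALLO libraries and 1605 and 1607 CPM in ISO libraries. Hspa14, the ribosome-associated HSP70, had 32.8 and 30.4 CPM in ALLO libraries and 23.0 and 19.6 CPM in ISO libraries and did not pass (log2 change 0.57 ± 0.21 SE, adjusted p = 0.0987). Across the 14 HSP70 and HSP110 genes, 7 fell (50%), 1 rose (7.14%) and 6 did not pass, with a median log2 change of -1.08. Over all genes tested 14.8% fell and 18.4% rose.

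Among the HSP90 genes the inducible cytosolic form fell. Hsp90aa1 had 217 and 170.0 CPM in ALLO libraries and 685 and 677 CPM in ISO libraries, a 3.51-fold decrease (log2 change -1.81 ± 0.24 SE, adjusted p = 0.00735). The constitutive form Hsp90ab1 had 859 and 887 CPM in ALLO libraries and 1624 and 1471 CPM in ISO libraries, without overlap, and did not pass (log2 change -0.83 ± 0.27 SE, adjusted p = 0.0677); its adjusted p ranged from 9.92e-05 to 0.217 over the alternatives and was under 0.05 in the same 3 as for Hspa8. The ratio of Hsp90aa1 to Hsp90ab1 per length was 0.193 and 0.146 in ALLO libraries and 0.322 and 0.351 in ISO libraries, so the inducible form also made up less of the pair in ALLO grafts; this ratio was not tested.

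The small heat shock proteins fell in 4 of the 5 members that could be tested (80%, beside 14.8% of all genes tested), with a median log2 change of -2.63. Hspb1 (HSP27), which caps and stabilises actin filaments, had 51.1 and 122 CPM in ALLO replicates 1 and 2, against 1263 and 881 CPM in ISO replicates 1 and 2 (log2 change -3.63 ± 0.52 SE, adjusted p = 0.00869). Both ALLO values were far below both ISO values, although the ALLO libraries differed from each other: the log2 change was -4.38 without ALLO replicate 2 and -3.10 without ALLO replicate 1. Hspb6 (HSP20), a phosphoprotein of relaxing smooth muscle, had 9.30 and 10.3 CPM in ALLO libraries and 124 and 164 CPM in ISO libraries, a 14.6-fold decrease (log2 change -3.87 ± 0.24 SE, adjusted p = 0.00216). Hspb8 (HSP22), the partner of BAG3, had 27.7 and 38.4 CPM in ALLO libraries and 180.4 and 221 CPM in ISO libraries (log2 change -2.60 ± 0.26 SE, adjusted p = 0.00439). For Hspb6 and Hspb8 the groups were widely separated. Hspb2, known from striated muscle, had 24 and 55 counts in ALLO libraries and 223 and 170 in ISO libraries (log2 change -2.63 ± 0.46 SE, adjusted p = 0.0141), but it shares 30.2% of its exonic bases with its neighbour Cryab, and the log2 change was -3.22 without ALLO replicate 2. Hspb11, whose product is an intraflagellar transport protein, had 4.27 and 3.22 CPM in ALLO libraries and 5.79 and 6.88 CPM in ISO libraries and did not pass (log2 change -0.76 ± 0.37 SE, adjusted p = 0.178).

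These decreases ran beside the decrease of smooth muscle markers given above, whose log2 changes ran from -5.32 to -2.87 with a median of -4.18. Hspb6 (-3.87) and Hspb1 (-3.63) lay within that range, and the changes of the other small heat shock proteins tested were smaller in size. The range was not particular to this subfamily. It also held Hspa1a (-5.18), Hspa1b (-5.17), Dnajb4 (-3.50), Dnajb5 (-3.46), Hsph1 (-3.44) and Hspa1l (-3.19). Between ALLO replicates 1 and 2 the median log2 difference was -0.53 over the smooth muscle markers and -0.47 over the 5 small heat shock proteins, among which Hspb6 differed by -0.15 and Hspb11 by 0.40. Between ISO replicates 1 and 2 it was -0.03 over the smooth muscle markers and -0.25 over the small heat shock proteins. Striated muscle markers had summed levels of 11.7 and 7.40 CPM in ALLO libraries and 20.6 and 51.8 CPM in ISO libraries. They did not move together: over the 8 tested the log2 change ran from -7.57 to 3.88, with a median of -1.50. Myh1, Myh2 and Myh4 were at 0 counts in both ISO libraries but not in both ALLO libraries, and Myh7 was at 0 in both ALLO libraries only. Klhl41, a sarcomere protein picked out here after its values were seen, fell, with 2 and 1 counts in ALLO libraries and 124 and 380 in ISO libraries (adjusted p = 0.00602), and its call was kept with each library left out. Mb was at 0 counts in every library, and 4 of the 8 tested fell, a count of 1 without ISO replicate 2 and of 2 without either ALLO library. The part of either tissue in the decreases was not tested.

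Bag3 and the heat shock factors were lower or did not pass. Bag3, the co-chaperone that joins HSP70 to HSPB8, had 50.5 and 61.2 CPM in ALLO libraries and 176 and 172 CPM in ISO libraries, a 3.11-fold decrease (log2 change -1.64 ± 0.20 SE, adjusted p = 0.00594). Per length, the ratio of Bag3 to Hspb8 was 1.39 and 1.21 in ALLO libraries and 0.742 and 0.593 in ISO libraries. Hsf1, the main activator of the heat shock response, had 32.5 and 40.6 CPM in ALLO libraries and 70.2 and 61.6 CPM in ISO libraries (log2 change -0.85 ± 0.20 SE, adjusted p = 0.0298); this call was lost without ALLO replicate 1, ISO replicate 1 or ISO replicate 2. Hsf2, a related factor active in development, had 17.3 and 14.5 CPM in ALLO libraries and 17.2 and 18.6 CPM in ISO libraries and did not pass (log2 change -0.17 ± 0.24 SE, adjusted p = 0.632). The activity of HSF1, which is controlled mainly at the protein, was not measured here.

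The mitochondrial chaperonin, which folds imported matrix proteins, fell in both subunits by similar amounts. Hspd1 (HSP60) had 96.8 and 83.7 CPM in ALLO libraries and 185 and 144 CPM in ISO libraries (log2 change -0.86 ± 0.22 SE, adjusted p = 0.0370). Its lid Hspe1 (HSP10) had 40.4 and 40.9 CPM in ALLO libraries and 84.6 and 64.4 CPM in ISO libraries (log2 change -0.87 ± 0.20 SE, adjusted p = 0.0291). The Hspd1 call was lost with any library left out and the Hspe1 call without ALLO replicate 1, ALLO replicate 2 or ISO replicate 1. Per length, Hspd1 stood at 1.34 and 1.14 times Hspe1 in ALLO libraries and at 1.22 and 1.25 times in ISO libraries, with no separation of the groups. The mitochondrial HSP70 gene Hspa9 (mortalin) had 160.1 and 145 CPM in ALLO libraries and 199 and 212 CPM in ISO libraries and did not pass (log2 change -0.43 ± 0.19 SE, adjusted p = 0.150). Of 9 members of the mitochondrion, these 2 fell (22.2%, near the 14.8% of all genes tested) and 7 did not pass.

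Most chaperones of the endoplasmic reticulum did not pass the test in either direction. Hspa5 (BiP), the HSP70 of that compartment, had 686 and 464 CPM in ALLO libraries and 728 and 627 CPM in ISO libraries, with overlapping groups (log2 change -0.24 ± 0.29 SE, adjusted p = 0.578). Hsp90b1 (GRP94) had 702 and 323 CPM in ALLO replicates 1 and 2, against 329 and 305 CPM in ISO replicates 1 and 2 (log2 change 0.69 ± 0.40 SE, adjusted p = 0.249). Its high value was in ALLO replicate 1: without that library the log2 change was 0.06, and without ALLO replicate 2 it was 1.15 with an adjusted p of 0.0279, over a range of adjusted p of 0.0279 to 0.856 across the alternatives. Of the 10 members of the endoplasmic reticulum, 1 fell (10%), 1 rose (10%) and 8 did not pass, with a median log2 change of 0.14, where 14.8% of all genes tested fell and 18.4% rose. The groups did not overlap for 4 of the 10 (40%), beside 72.5% of all genes tested. Of the 48 members of the cytosol or other places, 24 fell (50%) and 6 rose (12.5%), with a median of -0.86. This grouping by compartment was made after values had been seen, and the difference between compartments was not tested. The shares also depend on the assignment. Dnajc14, Dnajc16, Dnajc18 and Dnajc25 were counted with the cytosol or other places, and of these Dnajc18 and Dnajc25 fell. Placing them with the endoplasmic reticulum would change the shares of both groups.

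The J-domain proteins of the endoplasmic reticulum gave 1 decrease and 1 increase among those named. Dnajb11 (ERdj3), which hands clients to BiP, had 109 and 98.6 CPM in ALLO libraries and 72.9 and 65.2 CPM in ISO libraries and did not pass (log2 change 0.59 ± 0.18 SE, adjusted p = 0.0605). Dnajc3 (P58IPK) had 269.9 and 169.9 CPM in ALLO libraries and 267 and 236 CPM in ISO libraries, with overlapping groups (log2 change -0.19 ± 0.29 SE, adjusted p = 0.643). Dnajc10 (ERdj5), a disulfide reductase, fell, with 132 and 123 CPM in ALLO libraries and 213 and 257 CPM in ISO libraries (log2 change -0.88 ± 0.21 SE, adjusted p = 0.0297). Dnajb14, a membrane protein whose J domain faces the cytosol, rose, with 68.2 and 66.9 CPM in ALLO libraries and 43.5 and 45.5 CPM in ISO libraries (log2 change 0.60 ± 0.16 SE, adjusted p = 0.0432). The calls of Dnajc10 and Dnajb14 were lost with any library left out.

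Plasma cells, which secrete antibody through this compartment, left markers that differed between the same libraries. The 10 members were higher in ALLO replicate 1 than in ALLO replicate 2 by a median log2 difference of 0.51, and the 8 plasma cell markers by 1.77, with summed marker levels of 2984 and 1120 CPM in ALLO replicates 1 and 2 and 111 and 58.3 CPM in ISO replicates 1 and 2. Between the ISO replicates the members differed by 0.03 and the plasma cell markers by 2.38. The part of plasma cells in these values was not tested.

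Among the DnaJ proteins of the cytosol and nucleus, the classes A and B that serve HSP70 in refolding held the decreases of 4-fold or more. Dnajb4 had 32.0 and 47.7 CPM in ALLO libraries and 379 and 522 CPM in ISO libraries, an 11.3-fold decrease (log2 change -3.50 ± 0.33 SE, adjusted p = 0.00395). Dnajb5 had 17.2 and 21.1 CPM in ALLO libraries and 212 and 209 CPM in ISO libraries (log2 change -3.46 ± 0.22 SE, adjusted p = 0.00216). Dnajb2, which binds ubiquitin chains and is known from neurons and muscle, had 19.3 and 26.6 CPM in ALLO libraries and 139.9 and 125 CPM in ISO libraries (log2 change -2.52 ± 0.24 SE, adjusted p = 0.00395). In each of these 3 both ALLO values lay far below both ISO values. The canonical inducible HSP40, Dnajb1, fell only 1.92-fold, with 34.5 and 36.9 CPM in ALLO libraries and 64.2 and 72.5 CPM in ISO libraries (log2 change -0.94 ± 0.17 SE, adjusted p = 0.0161), and the call was lost without ALLO replicate 1 or ISO replicate 2. Dnajb6, which holds back protein aggregation, had 74.2 and 75.8 CPM in ALLO libraries and 78.2 and 84.9 CPM in ISO libraries and did not pass (log2 change -0.12 ± 0.17 SE, adjusted p = 0.625).

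In class A, Dnaja1 had 92.8 and 96.1 CPM in ALLO libraries and 293 and 296 CPM in ISO libraries, a 3.12-fold decrease (log2 change -1.64 ± 0.19 SE, adjusted p = 0.00551). Dnaja4 had 3.34 and 7.40 CPM in ALLO libraries and 23.9 and 26.5 CPM in ISO libraries (log2 change -2.22 ± 0.44 SE, adjusted p = 0.0185), but 44.1% of its exonic bases also belong to Wdr61, and the log2 change was -2.91 without ALLO replicate 2. Dnaja2, the constitutive partner of HSC70 with the highest level per length of the class, had 102 and 111 CPM in ALLO libraries and 112 and 116 CPM in ISO libraries and did not pass (log2 change -0.09 ± 0.18 SE, adjusted p = 0.718). Dnajb13, known from sperm flagella and motile cilia, rose, at a low level, with 37 and 89 counts in ALLO libraries and 12 and 8 in ISO libraries (log2 change 2.31 ± 0.66 SE, adjusted p = 0.0494); this call was lost with any library left out, and the log2 change was 1.68 without ALLO replicate 2.

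Class C, whose members carry the J domain beside unrelated domains, gave shares near the background. Of its 25 genes tested, 5 fell (20%), 4 rose (16%) and 16 did not pass, with a median log2 change of -0.14. Those that fell were Dnajc27 (log2 change -1.13 ± 0.26 SE, adjusted p = 0.0277), Dnajc4 (log2 change -1.11 ± 0.27 SE, adjusted p = 0.0310), Dnajc25 (log2 change -0.94 ± 0.26 SE, adjusted p = 0.0470), Dnajc10 and Dnajc18 (log2 change -0.75 ± 0.20 SE, adjusted p = 0.0392). Each of these 5 calls was lost with at least 3 of the 4 libraries left out in turn. Dnajc6 (auxilin), which strips clathrin from vesicles and is known from neurons, had 65 and 105 counts in ALLO libraries and 0 and 2 in ISO libraries, a ratio of 69.0 with a 95% counting interval of 12.1 to 2756 (exact, on read pairs; adjusted p = 0.0122). It was detected in both ALLO libraries and was near 0 in both ISO libraries. The fitted log2 change was 5.94, with 4.98 without ISO replicate 1 and 9.30 without ISO replicate 2, where the remaining ISO library has 0 counts and the fitted value depends on the prior count. Beside it, 3 of the 6 nerve and Schwann cell markers tested rose and 1 fell, with a summed level of 71.6 and 167.0 CPM in ALLO libraries and 262 and 343 CPM in ISO libraries; leaving out ALLO replicate 2 gave 1 that rose, and leaving out ALLO replicate 1 gave 5. The part of nerve in the Dnajc6 value was not tested. Dnajc2, which sits on the ribosome with the Hspa14 protein, had 46.7 and 32.5 CPM in ALLO libraries and 15.6 and 18.2 CPM in ISO libraries (log2 change 1.23 ± 0.26 SE, adjusted p = 0.0236). Dnajc7, an adaptor between HSP70 and HSP90, had 125 and 100.1 CPM in ALLO libraries and 66.8 and 55.5 CPM in ISO libraries (log2 change 0.88 ± 0.21 SE, adjusted p = 0.0319). Dnajc13 (RME-8), an endosomal protein, had 159 and 119 CPM in ALLO libraries and 74.5 and 83.4 CPM in ISO libraries (log2 change 0.82 ± 0.22 SE, adjusted p = 0.0446). The calls of Dnajc2, Dnajc7 and Dnajc13 were lost without ALLO replicate 1, ISO replicate 1 or ISO replicate 2. Dnajc6 passed the count filter only through its ALLO libraries. Its call, kept with each library left out, is therefore a description and not support.

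The other 7 members were too low to test. Dnajb8, Dnajc22, Dnajc5b and Dnajc5g had 0 counts in every library. A limit of 3 counts per library, covering counting error only, stands at 0.149 to 0.171 CPM. That limit takes each count as independent. Both mates of a pair appear to have been counted, so the level that 0 counts allow would be higher than these values. Dnajb7 had 6 and 2 counts in ALLO libraries and 7 and 1 in ISO libraries, Hspb3 had 2 and 0 counts in ALLO libraries and 0 in both ISO libraries. Hspb9 had 0 and 5 counts in ALLO libraries and 0 and 1 in ISO libraries.

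The make-up of the chaperone transcripts is given as shares, which were not tested. Summed per length over the 74 members, the level was 1705 and 1559 RPKM (CPM per kilobase of gene length) in ALLO libraries, against 4451 and 4006 RPKM in ISO libraries. Hspb1 held 2.91% and 7.60% of this sum in ALLO replicates 1 and 2, against 27.5% and 21.3% in ISO replicates 1 and 2, where it ranked highest of all members. Hspa1a and Hspa1b together held 0.853% and 0.946% in ALLO libraries, against 11.5% and 13.6% in ISO libraries. The constitutive genes held larger shares in ALLO libraries. Hspa8 held 17.6% and 17.0% in ALLO libraries and 12.04% and 12.57% in ISO libraries, and Hsp90ab1 held 16.8% and 19.0% in ALLO libraries and 12.2% and 12.2% in ISO libraries. Hspa5 held 9.52% and 7.04% in ALLO libraries, against 3.87% and 3.70% in ISO libraries. These are shares of a smaller sum in ALLO grafts, and a larger share does not mean a higher level.

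**Figure D3:**
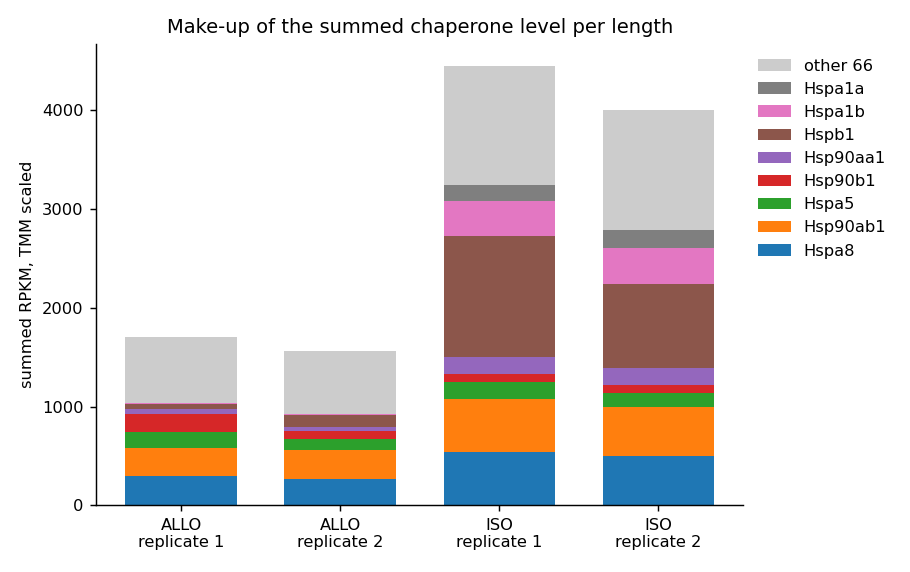
Summed level per length (RPKM) of the 74 chaperone genes in each library, stacked by gene for 8 genes with the other 66 in grey. The bars reach 1705 and 1559 RPKM in ALLO libraries and 4451 and 4006 RPKM in ISO libraries, and the Hspb1, Hspa1a and Hspa1b segments are thin in ALLO libraries.

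The promoter windows were searched on both strands for a heat shock element of 3 alternating GAA and TTC units, each 2 bases apart. It was found in 4 of the 59 members with a window (Dnajb6, Hspd1, Hspe1 and Hsph1; 6.78%), against 0.662% of all 27025 genes with a window. Of the 4, 3 fell and Dnajb6 did not pass, where 14 of the 68 tested genes with this element fell (20.6%), beside 15.4% of all tested genes with a window. The shorter form of 2 units, GAANNTTC or TTCNNGAA, which is contained in the longer one and was added after values had been seen, occurred in 17 members (28.8%) and in 17.0% of all genes. A gene was counted if any of its windows held the element. Dnaja1, Dnaja4, Dnajb4, Hspb6 and Hspd1 also have another window, around a different start, that lacks it. Of the 15 of these that were tested, 14 fell and Dnajb6 did not pass. Over the 15 the median log2 change was -2.22 and the range -5.18 to -0.12. Of the 39 members tested whose windows all lack it, 9 fell and 6 rose, with a median of -0.19. Among all genes tested with a window 16.3% of the 1653 that hold the short element fell, beside 15.4% of all 11634. A match is a match of letters and not a bound site, and binding of HSF1 was not measured here.

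**Figure D4:**
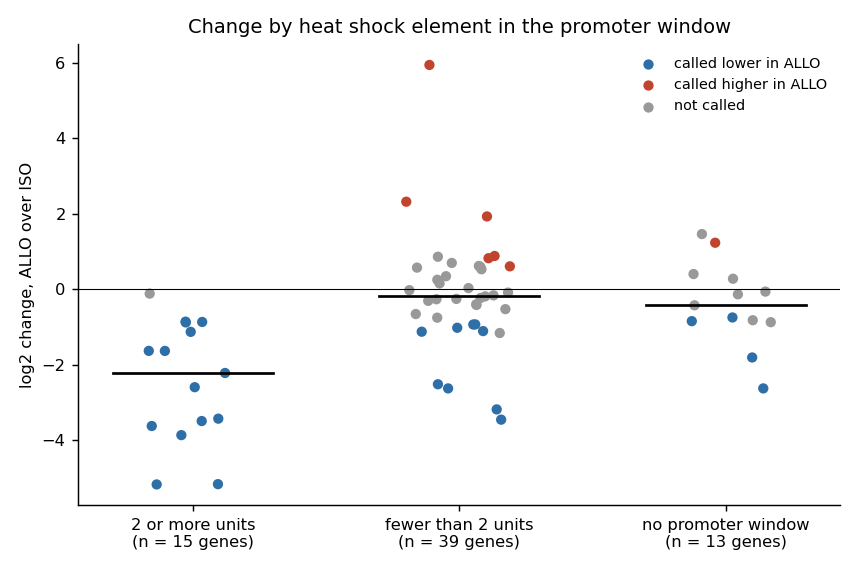
Log2 change, ALLO over ISO, of each chaperone gene tested, grouped by heat shock elements of 2 or more units in its promoter windows. The groups are genes with the element in any window, in no window, or with no window at hand. Black lines are medians and colours the call. Of the 15 genes with the element 14 fell, with a median of -2.22, against a median of -0.19 for the 39 without it.

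The endoplasmic reticulum stress element, CCAAT and CCACG with 9 bases between them, was found in Hspa5, Hsp90b1 and Dnajc3, 5.08% of the members with a window and 0.137% of all genes. None of these 3 passed the test. The letters GAAGTTTC occur in Hspb1 and Hspb6, at positions -117 and -120 from the start, although another Hspb6 window lacks them. They also occur in Hspb8 and Bag3, 2 and 42 bases after the start. The 9 members that fell without the 2-unit element in their windows were Dnajb1, Dnajb2, Dnajb5, Dnajc4, Dnajc25, Hspa1l, Hspa2, Hspa4 and Hspa4l. No window was at hand for 4 others that fell, Hsp90aa1, Hspb2, Hsf1 and Dnajc18.

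The partners of the HSP70 and HSP90 machinery that lack a J domain were also lower or did not pass. Over all genes tested 14.8% fell and 18.4% rose. Of 24 such co-chaperones, 9 fell, none of the 24 rose and 15 did not pass, with a median log2 change of -0.68; without ISO replicate 1 the count was 5. Bag2, a nucleotide exchange factor of HSP70, had 45 and 87 counts in ALLO libraries and 410 and 436 in ISO libraries (log2 change -3.00 ± 0.36 SE, adjusted p = 0.00576). Stip1 (HOP), which bridges HSP70 and HSP90, had 58.2 and 57.4 CPM in ALLO libraries and 204 and 168 CPM in ISO libraries (log2 change -1.69 ± 0.20 SE, adjusted p = 0.00577). The others that fell were Unc45a, a myosin chaperone, Fkbp4, Cdc37l1, Ahsa2, Ahsa1, Chordc1 and Cdc37. Ahsa2 is uncertain because 50.2% of its exonic bases also belong to other genes. Ahsa1, Chordc1 and Cdc37 passed only narrowly, with adjusted p of 0.0455, 0.0434 and 0.0450 in the main fit.

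Other folding machines were read against the 14.8% of all genes tested that fell and the 18.4% that rose. Of the 14 subunits of the cytosolic chaperonin and prefoldin 4 fell, with Pfdn1 (log2 change -1.13 ± 0.20 SE, adjusted p = 0.0146) and Cct6a (log2 change -0.64 ± 0.18 SE, adjusted p = 0.0440) foremost, and leave-one-out counts ran from 0 when ISO replicate 2 was dropped to 2 when ALLO replicate 2 was, with 1 for either other library. Of the 10 mitochondrial chaperones and proteases 2 fell, the HSPA9 exchange factor Grpel1 (log2 change -0.82 ± 0.18 SE, adjusted p = 0.0264) and the protease Lonp1 (log2 change -0.72 ± 0.20 SE, adjusted p = 0.0458); both calls were lost without ALLO replicate 1, ISO replicate 1 or ISO replicate 2, and that of Grpel1 also without ALLO replicate 2. Of 22 genes of endoplasmic reticulum stress and folding 3 rose and 19 did not pass, with a median of 0.31. Derl3, a degradation channel protein that also stands in the plasma cell list, had 75.6 and 16.2 CPM in ALLO replicates 1 and 2, against 2.51 and 0.483 CPM in ISO replicates 1 and 2 (log2 change 4.92 ± 1.09 SE, adjusted p = 0.0250). Its call was lost without ALLO replicate 1, where the log2 change was 3.46, and the change was 6.53 without ISO replicate 1, 4.16 without ISO replicate 2 and 5.66 without ALLO replicate 2. Edem1, which marks misfolded glycoproteins for removal, had 505 and 267 CPM in ALLO libraries and 102 and 94.6 CPM in ISO libraries (log2 change 1.97 ± 0.36 SE, adjusted p = 0.0150). The third was Xbp1, and 3 became 1 when ALLO replicate 1 was left out and 6 when ALLO replicate 2 was.

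The partners of BAG3 and the small heat shock proteins included the decrease of largest size among the 5 pathway lists. Their counts stand beside the 14.8% of all genes tested that fell and the 18.4% that rose. Of 9 genes, 5 fell and 1 rose, and the count of those that fell was 3 without ISO replicate 2. Synpo2, which tethers BAG3 to the actin cytoskeleton and is also in the smooth muscle list, had 53.9 and 60.6 CPM in ALLO libraries and 1370.0 and 1495 CPM in ISO libraries (log2 change -4.65 ± 0.28 SE, adjusted p = 0.00216). Flnc, the filamin that this pathway clears, had 31.2 and 59.5 CPM in ALLO libraries and 518 and 684 CPM in ISO libraries (log2 change -3.73 ± 0.41 SE, adjusted p = 0.00506). Cryab, the small heat shock protein alpha-B crystallin, had 40.8 and 67.9 CPM in ALLO libraries and 252 and 189.6 CPM in ISO libraries (log2 change -2.02 ± 0.33 SE, adjusted p = 0.0114). Cryaa, its lens relative, rose, with 14 and 35 counts in ALLO libraries and 0 in both ISO libraries, but leaving out ALLO replicate 1, ISO replicate 1 or ISO replicate 2 ended that call.

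Immediate early genes, which respond to tissue handling, were tested beside the heat shock genes. Their counts stand beside the 14.8% of all genes tested that fell and the 18.4% that rose. Of 10, 2 fell (Fosb and Ier3) and 8 did not pass; the count that fell was 1 without ALLO replicate 1 or ISO replicate 2 and 5 without ALLO replicate 2. The summed level was 1159 and 1642 CPM in ALLO libraries, against 1761 and 2620 CPM in ISO libraries. The part of tissue handling in the heat shock results was not tested.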

How the data were processed

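Total RNA from 4 aortic graft libraries, 2 ALLO and 2 ISO, was sequenced by the authors. The deposited table holds raw counts per Ensembl gene ID with mm10 coordinates and gene length; the submitters' processing notes name Subread 1.6.4, featureCounts, DESeq2 1.30.0, R 4.0.3 and mm10, and the strand setting is not given in the sources used here. IDs were named from GENCODE M21 (54723 of 54752 matched). Even numbers made up 68.0% to 74.6% of counts from 1 to 20, so both mates of a pair appear to have been counted.

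Counts were filtered with filterByExpr (minimum count 10), scaled by TMM and tested with edgeR 4.0.16 (R 4.3.3), quasi-likelihood, with no term but group and p-values adjusted by Benjamini-Hochberg over 16498 genes and a threshold of 0.05; the scripts were tested on simulated data. CPM and RPKM were computed from the deposited counts and lengths with the TMM factors. Alternatives used DESeq2 1.42.0, limma 3.58.1 (voom), other scalings and filters, a replicate block and each library left out. Named genes were a fixed set of 21 members, up to 5 per subfamily and direction with the smallest adjusted p, the 2 with the highest level per length in each subfamily, and up to 2 per pathway list and direction; others were named after their values were seen. Members, lists and tests were chosen with earlier results of these data known. Replicates differed by far more than sampling noise (chi-square over degrees of freedom 154 in ALLO and 45.7 in ISO). Each library was counted as a replicate, but this spread cannot show that the libraries come from different animals. Promoter sequences are from RefSeq (GRCm38.p6), matched by symbol for 59 of 74 members. Compartments were assigned from general knowledge.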

Additional observations from a re-analysis of the deposited data

How the results depend on the processing

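Across the 13 alternatives no named member with a call changed direction. The count of members that rose was 7 and became 4 with a replicate block, 2 to 6 with a library left out, and 5 to 10 otherwise; the count that fell was 27 and became 17 to 19 with a library left out and 19 to 30 otherwise. Scaling by library size only moved the median of all genes by 0.19 and that of the members to -0.24, against -0.43, and gave 10 members that rose and 19 that fell; with a library left out the median was -0.53 to -0.49. Leaving out a library leaves a group with 1, which is assumed to vary like the others. Replicate numbers correlated by 0.0974 in their deviations and the labels do not pair them; under the replicate block 7 calls were lost, those of Dnajb13, Dnajb14, Dnajc10, Dnajc13, Dnajc18, Dnajc25 and Hsf1, and the members that fell numbered 23.

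Among the lists, endothelial genes that rose numbered 0 with a replicate block, without any 1 library, with no filter and with a mean count filter. Plasma cell, striated muscle, immediate early, chaperonin and endoplasmic reticulum counts also moved by over 1.5 times: immediate early genes that fell numbered 5 without ALLO replicate 2 and 4 with DESeq2, chaperonin and prefoldin genes that fell 7 with DESeq2 and 1 with library size only or the replicate block, and endoplasmic reticulum genes that rose 7 with library size only and 5 with DESeq2. The causes were not tested. Depth limits the 7 untested members and Dnajc6, Dnajb13, Hspa1l and Hspb2.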
